A study of Mus musculus with 23 samples.

Results

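Genes known for their part in skeletal muscle wasting (Fbxo32, Trim63, Foxo1, Foxo3, Bnip3, Ctsl, Eif4ebp1 and Gadd45a) were followed together with the metallothionein genes Mt1 and Mt2 in mouse gastrocnemius muscle lacking emerin or lamin A/C. The 10 genes were taken by symbol, with every probe set (a group of short probes read together as 1 value) that the array annotation gives to 1 of them. No probe set carried the symbol Trim63, which was therefore not analysed here, and the other 9 genes had 18 of the 22690 probe sets on the array. Of these 18, 17 passed the signal minimum of 100 on at least 2 arrays, and the brightest probe set of each of the 9 genes stood for it among 11162 genes tested.

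The arrays held RNA from 9 groups. Emerin KO (knockout) muscle was profiled uninjected on day 0 (2 arrays), then 3 and 4 days after injection (3 arrays each). Lamin A/C KO muscle was profiled on the same days with 3 arrays each, and its day 0 samples are labelled as taken 0 days after injection. Control muscle had 2 arrays on each day and was not injected on day 0. The series was designed to follow staged degeneration and regeneration, and the labels used here name neither the injected agent, the strains nor the ages. Every control title refers to the lamin A line, and no control of the emerin line was used here, so emerin deletion and line background cannot be told apart where emerin KO is set against control. Whether arrays within a group stem from separate animals is not stated, so the p-values reflect spread among these arrays, which may be technical.

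In a wasting muscle, FoxO transcription factors held in check by Akt enter the nucleus and switch on genes for protein breakdown. Fbxo32 (atrogin-1) and Trim63 (MuRF1) are muscle ubiquitin ligases that send proteins to the proteasome, while Bnip3 and Ctsl act in the autophagy and lysosome branch. Metallothioneins are small cysteine-rich proteins that bind zinc and copper, and their genes are induced by metals, glucocorticoids, oxidative stress and inflammatory cytokines. The wasting genes and the metallothioneins are often induced together in muscle that loses mass.

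Several facts of the whole series touch these genes. The emerin gene Emd averaged signals of 418, 262 and 207 over days 0, 3 and 4 in emerin KO muscle, against 678, 766 and 692 for control. The Lmna probe set with the largest drop averaged 77.8, 61.1 and 70.8 in lamin A/C KO muscle over the same days, against 890, 3992 and 3744 for control. The Lmna probe set that stood for the gene in the fit averaged 606, 993 and 686 for lamin A/C KO and 638, 2310 and 2014 for control, with overlapping day 0 arrays (-0.11 on the log2 scale, adjusted p = 0.93), and it was lower in lamin A/C KO on day 3 (-1.20, adjusted p = 0.026) and day 4 (-1.51, adjusted p = 6.4e-04). The dimmest Lmna probe set was higher in lamin A/C KO on every day. The summed signal of 8 mature myofiber markers, among them Ckm, Acta1 and Myh4, was 203759 to 221938 in emerin KO, 188226 to 243864 in lamin A/C KO and 212902 to 213386 in control on day 0, and every array after injection lay at or under 110491. The sum of 12 macrophage markers was at most 11083 on any day 0 array and at least 45199 on every injected array. The Gapdh 3′/5′ signal ratio, a sign of RNA quality that rises as RNA degrades, was 3.62 to 6.09 in emerin KO at day 3, 1.40, 2.89 and 5.30 in emerin KO at day 4, and between 0.822 and 1.64 on all other arrays.

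After injection, Bnip3 fell and Ctsl rose in all 3 genotypes on both days, Mt1 and Mt2 rose in emerin KO and control on both days, and Fbxo32 fell in both knockouts. By day 3, 4 of the 9 genes rose and 3 fell in emerin KO, 4 rose and 4 fell in lamin A/C KO, and 4 rose and 2 fell in control, by limma at an adjusted p under 0.05. Of all genes, 23.7% rose and 22.1% fell in emerin KO, 23.3% rose and 19.6% fell in lamin A/C KO, and 20.0% rose and 14.1% fell in control. By day 4, 4 rose and 2 fell in emerin KO, 2 rose and 4 fell in lamin A/C KO, and 3 rose and 2 fell in control, against 23.4% and 20.7% of all genes in emerin KO, 20.8% and 18.1% in lamin A/C KO, and 19.4% and 14.2% in control. So many genes passed in these comparisons that a passing member is common in itself. Between day 3 and day 4 the single call was a fall of Mt2 in lamin A/C KO, where 0.744% of all genes fell and 1.25% rose, and no member passed in emerin KO (1.16% of all genes) or control (0.0448%). The median log2 difference of all genes from day 0 to day 3 was -0.08 in emerin KO, -0.08 in lamin A/C KO and 0.09 in control. In such bulk samples, fewer cells of a type and less RNA per cell cannot be told apart.

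**Figure D1:**
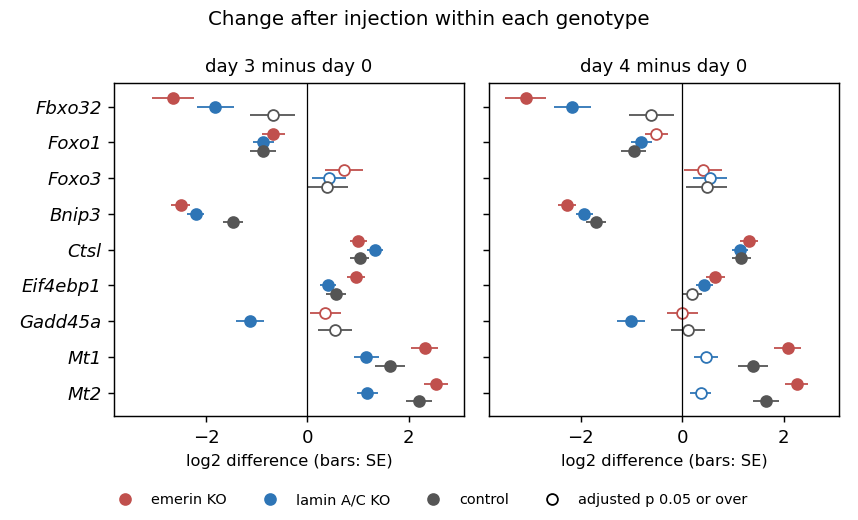
Log2 difference of each gene after injection, day 3 minus day 0 (left) and day 4 minus day 0 (right), in emerin KO, lamin A/C KO and control, with bars for the standard error. Filled points have an adjusted p under 0.05. Bnip3 lies left of 0 and Ctsl right of it in all 3 genotypes, while Gadd45a is filled in lamin A/C KO only.

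Few members differed between genotypes. On day 0, Fbxo32 was higher in emerin KO than in control, and no other member passed, against 1.20% of all genes higher and 2.02% lower. On day 3, Ctsl was lower in emerin KO than in control and no other member passed (7.30% of all genes higher, 8.79% lower), and on day 4 none did (5.76% in either direction). In lamin A/C KO, Mt2 alone was higher than in control on day 0, where 0.753% of all genes were higher and 0.125% lower. No member differed between lamin A/C KO and control on day 3 or day 4, when 0.0269% and 0.0538% of all genes passed (798 and 534 genes had an unadjusted p under 0.05). Against lamin A/C KO, emerin KO had higher Fbxo32 and lower Gadd45a and Mt2 on day 0 (2.07% of all genes higher, 4.17% lower), lower Ctsl on day 3 (3.92% higher, 5.92% lower) and higher Mt1 on day 4 (8.33% higher, 7.96% lower). The emerin KO and lamin A/C KO comparisons with control share the control arrays, and each change after injection shares its day 0 arrays with the day 0 differences. On day 3 the Gapdh ratio was 3.62 to 6.09 in emerin KO and 0.957 to 0.976 in control. RNA quality and genotype thus cannot be told apart in that comparison, for the members or for other genes.

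The interaction, which sets the change after injection in a knockout against that in control, passed for 1 member. The fall of Bnip3 by day 3 was larger in emerin KO than in control, where 1.11% of all genes had a lower and 1.35% a higher interaction. No member passed in the emerin KO interaction on day 4 (0.591% of all genes) or in the lamin A/C KO interaction on day 3 (0.161%) and day 4 (0.206%). A change that passed in 1 genotype and not in another is therefore not shown to differ between them.

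**Figure D2:**
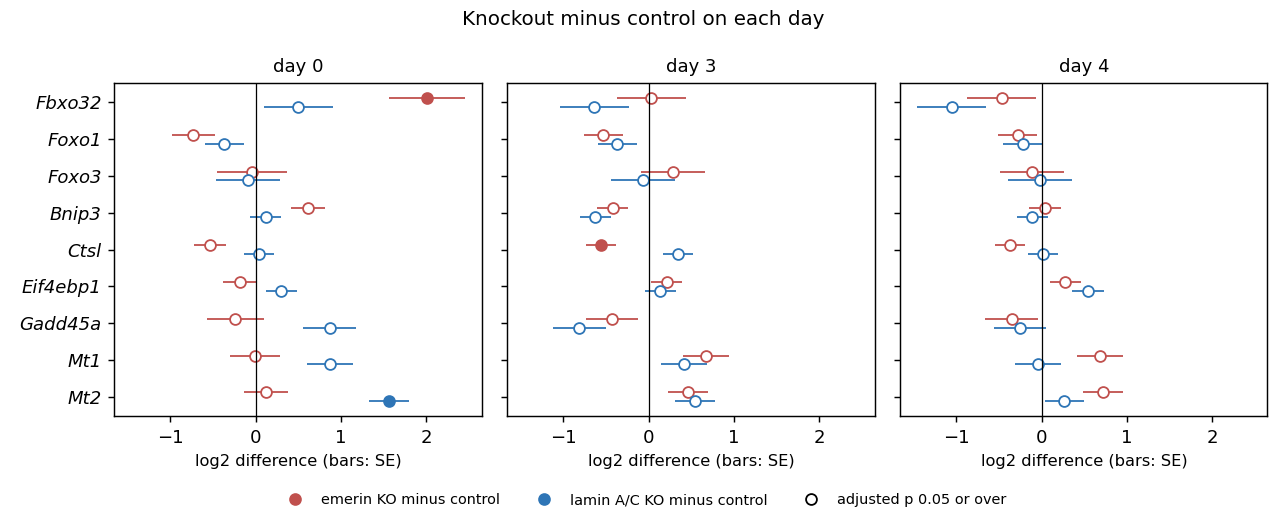
Log2 difference of each gene between emerin KO and control and between lamin A/C KO and control on days 0, 3 and 4, with bars for the standard error. Filled points have an adjusted p under 0.05. Fbxo32 in emerin KO and Mt2 in lamin A/C KO stand right of 0 on day 0, and Ctsl in emerin KO stands left of it on day 3.

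Fbxo32 encodes the F-box protein that brings substrates to a muscle-specific ubiquitin ligase and is a standard marker of atrophy. On day 0 its brightest probe set read 3413 and 2564 in emerin KO, 812, 883 and 1484 in lamin A/C KO, and 581 and 874 in control. Both emerin KO arrays lay above all lamin A/C KO and control arrays, which overlapped. Fbxo32 was 4.01-fold higher in emerin KO than in control (log2 difference 2.01 ± 0.44, SE, adjusted p = 0.012) and 2.84-fold higher than in lamin A/C KO (1.5 ± 0.41, adjusted p = 0.026). The difference between lamin A/C KO and control was 0.50 ± 0.41 (adjusted p = 0.77). The second Fbxo32 probe set read 1667 and 2245 in emerin KO, 555, 510 and 988 in lamin A/C KO, and 545 and 529 in control. The emerin KO arrays were again the highest, but with every probe set as its own feature its difference from control, 1.79 ± 0.52, did not pass (adjusted p = 0.069). The call on the brighter probe set ended without control day 0 replicate 1 (1.72 ± 0.55, adjusted p = 0.16), without emerin KO day 0 replicate 1 (1.80 ± 0.55, adjusted p = 0.064) and when the fit held the compared groups alone (adjusted p = 0.063). The call against lamin A/C KO ended without emerin KO day 0 replicate 1 (1.30) or 2 (1.71) and without lamin A/C KO day 0 replicate 1 (1.34) or 2 (1.40). On these arrays the mature myofiber sums overlapped between emerin KO and control, and the sum of 6 fibroblast markers was 34983 and 53314 in emerin KO, against 71708 to 83494 in control.

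After injection the Fbxo32 signals on day 3 were 351, 373 and 667 in emerin KO, 287, 196 and 342 in lamin A/C KO, and 295 and 632 in control. On day 4 they were 375, 198 and 436 in emerin KO, 185, 119 and 363 in lamin A/C KO, and 333 and 616 in control. All injected arrays of each knockout lay under its day 0 arrays, while the control arrays of days 0, 3 and 4 overlapped. The fall from day 0 to day 3 was 6.27-fold in emerin KO (-2.65 ± 0.41, adjusted p = 1.1e-05) and 3.51-fold in lamin A/C KO (-1.81 ± 0.36, adjusted p = 3.0e-04), and by day 4 it was 8.49-fold in emerin KO (-3.09 ± 0.41, adjusted p = 1.7e-06) and 4.49-fold in lamin A/C KO (-2.17 ± 0.36, adjusted p = 5.1e-05). In control the difference was -0.68 ± 0.44 by day 3 (adjusted p = 0.27) on the brightest probe set, and by day 4 it was -0.61 ± 0.44 (adjusted p = 0.33). It passed for the second probe set on day 3 (-1.66 ± 0.52, adjusted p = 0.017) and not on day 4 (-1.23 ± 0.52, adjusted p = 0.081). The interaction between emerin KO and control was -1.97 ± 0.60 on day 3 (95% interval -3.26 to -0.68, adjusted p = 0.082) and -2.47 ± 0.60 on day 4 (-3.76 to -1.18, adjusted p = 0.066), which did not pass. This interaction rests on the same high day 0 emerin KO arrays as the day 0 difference. The mature myofiber sum fell from day 0 to day 3 in every genotype, and its part in the Fbxo32 changes was not tested.

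**Figure D3:**
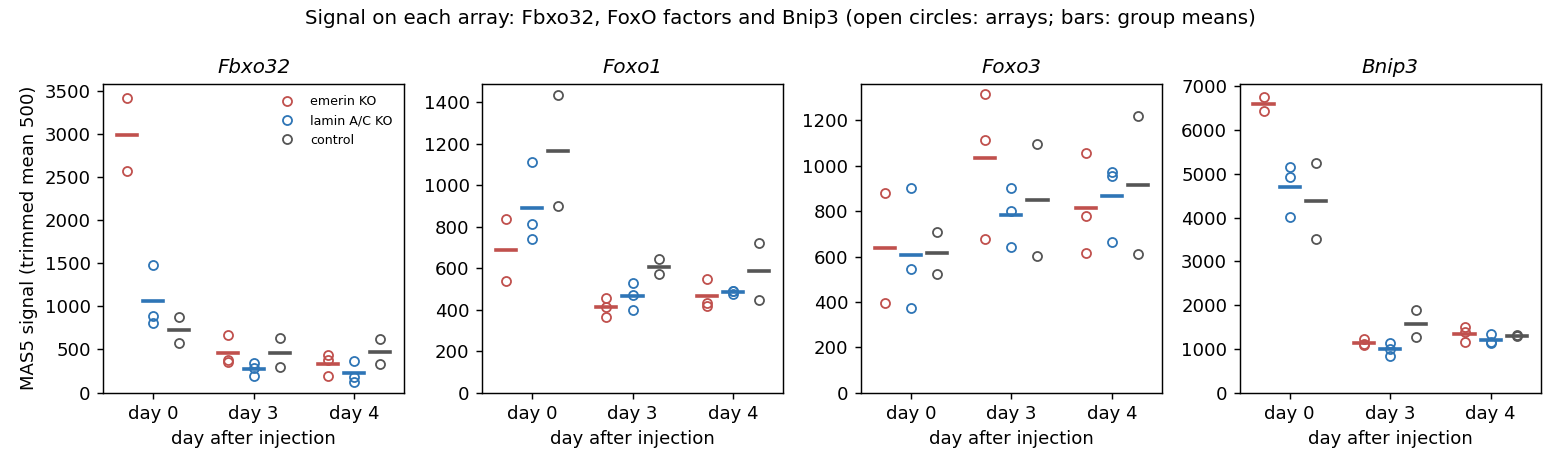
MAS5 signal (linear scale) of Fbxo32, Foxo1, Foxo3 and Bnip3 on each array by day, with emerin KO, lamin A/C KO and control side by side. Circles are arrays and bars are group means. The 2 day 0 emerin KO arrays stand above the other day 0 arrays for Fbxo32 and for Bnip3.

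Other genes of the ubiquitin ligase machinery were read from a list of 21 symbols, of which 14 were tested. By day 3, 0 rose and 7 fell in emerin KO (median log2 difference -0.51), 0 rose and 7 fell in lamin A/C KO (-0.52), and 0 rose and 5 fell in control (-0.24). Of all genes, 23.7% rose and 22.1% fell in emerin KO, 23.3% and 19.6% in lamin A/C KO, and 20.0% and 14.1% in control. These shares also apply to the day 3 counts of the lists below. Trim54 (MuRF3), a sarcomeric relative of Trim63, fell most, with log2 differences of -2.91 in emerin KO, -2.70 in lamin A/C KO and -2.62 in control. The ubiquitin-conjugating enzymes Ube2b and Ube2d1 fell in all 3 genotypes too, with -2.41 and -1.82 in emerin KO, -2.15 and -1.52 in lamin A/C KO, and -1.95 and -1.93 in control. On day 0, 0 of the 14 differed between emerin KO and control. On day 3, 3 of the 14 were lower and 1 higher, against 8.79% of all genes lower and 7.30% higher. Nedd4, a ligase of the HECT type, was lower in emerin KO than in control (-1.67, adjusted p = 5.4e-04), and so was Ube2b (-0.67, adjusted p = 0.017). The cullin Cul1 was lower too (-0.51, adjusted p = 0.026, added after its value was seen), while the mitochondrial ligase Mul1 was higher (0.83, adjusted p = 0.013). All emerin KO day 3 arrays had a high Gapdh ratio. The list genes, here and below, are given without that ratio as a covariate.

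Foxo1 and Foxo3 encode the transcription factors that drive Fbxo32 and Trim63 when Akt signalling is low. Foxo1 read 540 and 838 in emerin KO, 812, 740 and 1113 in lamin A/C KO, and 1436 and 899 in control on day 0. Day 3 signals were 415, 366 and 456 in emerin KO, 528, 473 and 398 in lamin A/C KO, and 643 and 573 in control. Day 4 signals were 431, 548 and 418 in emerin KO, 489, 476 and 491 in lamin A/C KO, and 723 and 446 in control. In each genotype all day 3 arrays lay under all day 0 arrays, and the control arrays stood above those of emerin KO on days 0 and 3. Foxo1 fell by day 3 in emerin KO (-0.67 ± 0.23, adjusted p = 0.020), lamin A/C KO (-0.87 ± 0.21, adjusted p = 0.0015) and control (-0.87 ± 0.25, adjusted p = 0.0093), and by day 4 in lamin A/C KO (-0.81 ± 0.21, adjusted p = 0.0031) and control (-0.96 ± 0.25, adjusted p = 0.0048). On day 4 the emerin KO difference was -0.51 ± 0.23 (adjusted p = 0.078).

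The Foxo1 calls were not equally firm. In lamin A/C KO, 2 further Foxo1 probe sets also fell on both days, with differences of -1.09 and -1.0 on day 3 and of -1.12 and -1.18 on day 4, and in lamin A/C KO the fourth probe set did not pass. In emerin KO and control none of these 3 passed on either day. The control calls ended without control day 0 replicate 1 (day 3 difference -0.54, adjusted p = 0.20, day 4 difference -0.63, adjusted p = 0.13) and with the mean of all probe sets (-0.40 and -0.14). The day 3 control call also ended without control day 3 replicate 2 (-0.79, adjusted p = 0.069), and the day 4 call without control day 4 replicate 2 (-0.63, adjusted p = 0.12). The emerin KO call on day 3 ended without emerin KO day 0 replicate 2 (-0.37, adjusted p = 0.32), without emerin KO day 3 replicate 2 (-0.60, adjusted p = 0.069) and with the Gapdh ratio as a covariate (-0.15, adjusted p = 0.83).

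Foxo3 passed in none of the 22 comparisons on its brightest probe set. Its signals ran from 394 to 1314 in emerin KO, from 374 to 974 in lamin A/C KO and from 525 to 1219 in control, and the day 0 arrays overlapped those of days 3 and 4 within each genotype. The difference by day 3 was 0.73 ± 0.37 in emerin KO (95% interval -0.08 to 1.53), 0.42 ± 0.33 in lamin A/C KO (-0.30 to 1.14) and 0.40 ± 0.41 in control (-0.48 to 1.28). These intervals hold changes of more than 2-fold upward, so the data do not show that Foxo3 stayed level. The emerin KO difference hung on single arrays: it passed without day 0 replicate 2 (1.27, adjusted p = 0.026) and without day 3 replicate 1 (0.996, adjusted p = 0.047), was 0.18 without day 0 replicate 1 (adjusted p = 0.77), and turned to -0.31 with the Gapdh ratio as a covariate (adjusted p = 0.78). With every probe set as its own feature, the second Foxo3 probe set was higher in emerin KO than in lamin A/C KO on day 4 (0.40 ± 0.13, adjusted p = 0.039).

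Of 20 Akt and FoxO signalling genes, 18 were tested, and their counts stand against the same day 3 shares of all genes. By day 3, 3 rose and 8 fell in emerin KO (median -0.58), 2 rose and 6 fell in lamin A/C KO (-0.28), and 3 rose and 5 fell in control (-0.52). Klf15, a glucocorticoid-responsive factor that acts with FoxO in muscle, fell, with -3.32 in emerin KO, -3.14 in lamin A/C KO and -2.91 in control. Pdk4, the kinase that shuts off pyruvate dehydrogenase and a FoxO target, fell, with -3.04 in emerin KO, -3.69 in lamin A/C KO and -2.56 in control. On day 0, 0 of the 18 passed between emerin KO and control. On day 3, 4 of the 18 were lower and 2 higher in emerin KO than in control. Of all genes, 8.79% were lower and 7.30% higher in that comparison. The lower ones were the coregulator Cited2 (-1.31, adjusted p = 0.023), the kinase Sgk1 (-1.29, adjusted p = 0.0078), the insulin receptor substrate Irs1 (-1.0, adjusted p = 0.0013) and Tsc2 (-0.81, adjusted p = 0.047). The higher ones were the sestrin Sesn1 (0.98, adjusted p = 4.5e-04) and Tsc1 (0.72, adjusted p = 0.020), whose product acts in a complex with that of Tsc2 to restrain mTOR. Tsc2, Sesn1 and Tsc1 were added after their values were seen. These day 3 differences also rest on the emerin KO arrays with a high Gapdh ratio. Of 12 glucocorticoid targets, all tested, 5 fell and 2 rose by day 3 in each knockout, against 3 and 2 in control, and Klf9 fell, with -2.62 in emerin KO, -2.02 in lamin A/C KO and -1.89 in control.

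Bnip3, a mitochondrial protein that recruits the autophagy machinery and is induced by FoxO3 and by hypoxia, fell in every genotype. On day 0 it read 6443 and 6758 in emerin KO, 4934, 4006 and 5152 in lamin A/C KO, and 5250 and 3513 in control. On day 3 it read 1097, 1217 and 1120 in emerin KO, 1142, 1004 and 842 in lamin A/C KO, and 1261 and 1883 in control. On day 4 it read 1494, 1377 and 1164 in emerin KO, 1329, 1131 and 1158 in lamin A/C KO, and 1311 and 1288 in control. Every injected array lay under every day 0 array, and the emerin KO arrays were the highest on day 0. The fall by day 3 was 5.64-fold in emerin KO (-2.50 ± 0.18, adjusted p = 2.6e-10), 4.61-fold in lamin A/C KO (-2.20 ± 0.16, adjusted p = 4.5e-10) and 2.75-fold in control (-1.46 ± 0.20, adjusted p = 5.2e-06). By day 4 it was 4.84-fold in emerin KO, 3.81-fold in lamin A/C KO and 3.25-fold in control.

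The day 3 change of Bnip3 in emerin KO minus that in control was -1.04 ± 0.27 (95% interval -1.62 to -0.45, adjusted p = 0.044). The call ended under 11 of 20 alternatives, among them leaving out control day 3 replicate 2, the array at 1883 (-0.75, adjusted p = 0.24), or control day 0 replicate 2, the array at 3513 (-0.75, adjusted p = 0.21), and also either emerin KO day 0 array or emerin KO day 3 replicate 1 or 2. By day 4 the interaction was -0.57 ± 0.27 (adjusted p = 0.40). On day 0 Bnip3 was 0.62 ± 0.20 higher in emerin KO than in control, without overlap of the arrays, and did not pass (adjusted p = 0.10). The mature myofiber sum on day 3 was 49944 to 61860 in emerin KO and 64928 to 101006 in control, and its part in the Bnip3 difference was not tested.

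Autophagy and mitophagy genes, 15 of 16 tested, fell more often than they rose by day 3. The day 3 shares of all genes given above apply here too. By day 3, 1 rose and 8 fell in emerin KO (median -0.65), 1 rose and 7 fell in lamin A/C KO (-0.30), and 1 rose and 5 fell in control (-0.27). Pink1, the kinase that marks damaged mitochondria, fell, with -2.74 in emerin KO, -1.98 in lamin A/C KO and -1.96 in control. Map1lc3a, which encodes a form of the autophagosome protein LC3, fell, with -1.46 in emerin KO, -1.65 in lamin A/C KO and -1.37 in control. On day 0, 3 of the 15 were higher in emerin KO than in control and 0 were lower. Of all genes, 1.20% were higher and 2.02% lower. The 3 were the autophagy-initiating kinase Ulk1 (0.96, adjusted p = 0.0075), Pink1 (0.91, adjusted p = 0.0045) and the autophagy receptor Sqstm1 (0.69, adjusted p = 0.0045). The list median there was 0.08 and that of all genes 0.09. In lamin A/C KO on day 0, Sqstm1 alone of the 15 was higher than in control (0.76, adjusted p = 0.0020). On day 3, Gabarap (-0.60, adjusted p = 0.0027) and Gabarapl2 (-0.64, adjusted p = 0.0076) were lower in emerin KO than in control. Tfeb was higher there (0.82, adjusted p = 0.019), against 8.79% of all genes lower and 7.30% higher. On day 4 Map1lc3a was lower in emerin KO than in control (-0.65, adjusted p = 0.038), where 5.76% of all genes passed. These emerin KO groups include arrays with a high Gapdh ratio. Hypoxia targets, all 12 tested, had 3 rise and 4 fall by day 3 in emerin KO, 2 rise and 5 fall in lamin A/C KO, and 2 rise and 4 fall in control, with Egln1, the oxygen-sensing prolyl hydroxylase, at -3.27 in emerin KO, -1.93 in lamin A/C KO and -2.12 in control.

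Ctsl, the lysosomal protease cathepsin L, rises in wasting muscle and is also abundant in macrophages. On day 0 it read 2830 and 2041 in emerin KO, 3531, 3781 and 3479 in lamin A/C KO, and 3375 and 3605 in control. Its day 3 signals were 5464, 5636 and 3744 in emerin KO, 9145, 7826 and 10605 in lamin A/C KO, and 7262 and 7077 in control. Its day 4 signals were 5874, 6821 and 5555 in emerin KO, 8140, 7048 and 8802 in lamin A/C KO, and 7667 and 8037 in control. The emerin KO arrays lay under all control and all lamin A/C KO arrays on each of the 3 days. Ctsl rose by day 3 2.01-fold in emerin KO (1.01 ± 0.17, adjusted p = 4.8e-05), 2.52-fold in lamin A/C KO (1.34 ± 0.16, adjusted p = 3.3e-07) and 2.05-fold in control (1.03 ± 0.19, adjusted p = 1.7e-04). By day 4 it was 2.5-fold over day 0 in emerin KO, 2.20-fold in lamin A/C KO and 2.24-fold in control.

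Between genotypes, Ctsl was 1.47-fold lower in emerin KO than in control on day 3 (-0.56 ± 0.17, adjusted p = 0.032) and 1.87-fold lower than in lamin A/C KO (-0.90 ± 0.16, adjusted p = 9.8e-04). On day 0 the difference from control was -0.53 ± 0.19 (adjusted p = 0.15) and on day 4 it was -0.37 ± 0.17 (adjusted p = 0.22). The emerin KO day 3 arrays all have a high Gapdh ratio, and with that ratio as a covariate the Ctsl difference from control was -0.49 ± 0.33 (adjusted p = 0.77) and from lamin A/C KO -0.85 ± 0.26 (adjusted p = 0.24). The call against control also ended without emerin KO day 3 replicate 3, the lowest of the day 3 arrays (-0.37 ± 0.16, adjusted p = 0.13), without either control day 3 array (adjusted p = 0.16 without replicate 1 and 0.14 without replicate 2) and under 4 other settings. The macrophage sum on day 3 was 54225 to 56585 in emerin KO, 54966 to 56167 in lamin A/C KO and 47593 to 49611 in control, and its part in the difference was not tested.

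**Figure D4:**
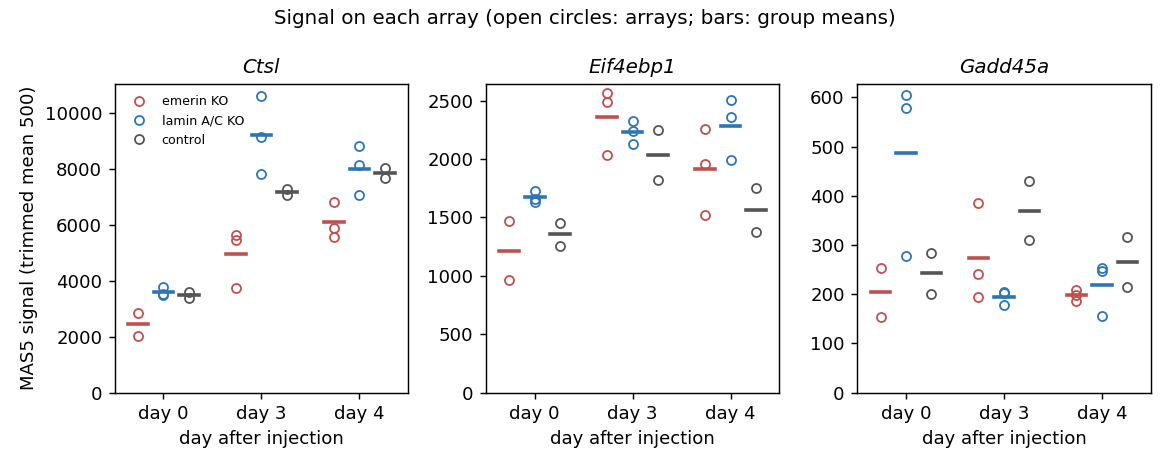
MAS5 signal (linear scale) of Ctsl, Eif4ebp1 and Gadd45a on each array by day, with emerin KO, lamin A/C KO and control side by side. Circles are arrays and bars are group means. Ctsl is lower on the emerin KO arrays than on those of the other genotypes on each day, and Gadd45a has 2 high lamin A/C KO arrays on day 0.

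Of 16 other lysosomal genes, 14 were tested, and by day 3 11 rose and 1 fell in emerin KO (median 1.56), 10 rose and 2 fell in lamin A/C KO (1.46), and 10 rose and 2 fell in control (1.44). Ctss, the cathepsin of antigen-presenting cells, rose by 3.25 in emerin KO, 2.77 in lamin A/C KO and 3.09 in control. Cstb, an inhibitor of cathepsins, rose by 2.69 in emerin KO, 2.45 in lamin A/C KO and 2.34 in control. Macrophage markers rose at the same time, 11 of 12 in emerin KO and 12 of 12 in lamin A/C KO and in control, and the part of incoming cells in the rise of Ctsl was not tested. Between emerin KO and control on day 3, 2 of the 14 were lower and 2 higher, against 8.79% and 7.30% of all genes. Those lower in emerin KO were Ctsc and Ctsk (-0.83 and -0.98, adjusted p = 0.0043 and 0.049). Those higher were the lysosomal membrane protein Lamp1 (0.66, adjusted p = 0.0058) and Ctsa (0.56, adjusted p = 0.0079), the last added after its value was seen. The high Gapdh ratio of the emerin KO day 3 arrays limits these differences too.

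Eif4ebp1 encodes 4E-BP1, which holds back cap-dependent translation until mTOR phosphorylates it, and is a FoxO target in Drosophila. On day 0 its brightest probe set read 1470 and 961 in emerin KO, 1656, 1636 and 1731 in lamin A/C KO, and 1452 and 1258 in control. On day 3 it read 2485, 2564 and 2034 in emerin KO, 2239, 2126 and 2326 in lamin A/C KO, and 2253 and 1820 in control. All day 3 arrays lay above all day 0 arrays. Eif4ebp1 rose by day 3 in emerin KO (0.96 ± 0.18, adjusted p = 1.5e-04), lamin A/C KO (0.41 ± 0.16, adjusted p = 0.0498) and control (0.57 ± 0.20, adjusted p = 0.030), and by day 4 in emerin KO (0.65 ± 0.18, adjusted p = 0.0058) and lamin A/C KO (0.44 ± 0.16, adjusted p = 0.039). The brightest probe set carries a suffix for shared probes and may share signal with relatives. The next Eif4ebp1 probe set had differences of 0.00 in emerin KO, 0.13 in lamin A/C KO and 0.74 in control by day 3, and passed in control alone (adjusted p = 0.0093). On that next probe set, Eif4ebp1 was lower in emerin KO than in control on day 3 (-0.62 ± 0.19, adjusted p = 0.031), where the brightest probe set gave 0.21 ± 0.18. The probe sets thus disagreed, and the direction of Eif4ebp1 in emerin KO is uncertain. With the mean of all probe sets the day 3 difference was 0.19 in emerin KO and 0.05 in lamin A/C KO, and neither passed. The lamin A/C KO call on day 3 ended under 13 alternatives, each of its 6 arrays left out in turn among them (0.38 to 0.44), and the day 4 call without any 1 of the day 0 arrays or day 4 replicate 1 or 3 (0.37 to 0.46). The control call ended with median scaling, without control day 0 replicate 1 (0.67) or 2 (0.47), and without control day 3 replicate 1 (0.42). Both emerin KO calls, on day 3 and day 4, ended with the Gapdh ratio as a covariate. The emerin KO call on day 4 also ended with the mean of all probe sets, with the compared groups alone and without emerin KO day 0 replicate 2 (0.35). It ended as well without the emerin KO arrays whose Gapdh ratio was over 2.5 (0.34). There replicate 2 is the 1 emerin KO day 4 array left and is assumed to vary like the other groups.

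Of 11 tested genes of cap-dependent translation (15 listed), 2 rose and 6 fell by day 3 in emerin KO and in lamin A/C KO, and 2 rose and 3 fell in control. The helicase Eif4a2 fell, with -1.97 in emerin KO, -1.59 in lamin A/C KO and -1.32 in control. Rheb, the small GTPase that activates mTOR, fell, with -1.68 in emerin KO, -1.03 in lamin A/C KO and -1.15 in control. Between emerin KO and control on day 3, 4 of the 11 were lower and 1 higher, against 8.79% and 7.30% of all genes. Among these, the cap-binding protein Eif4e, the partner that 4E-BP1 holds, was lower in emerin KO than in control on day 3 (-0.99, adjusted p = 0.017). Rheb was lower as well (-1.06, adjusted p = 0.013), and the ribosomal protein gene Rps6 was higher (1.24, adjusted p = 5.8e-05). Emerin KO arrays of that day all had a high Gapdh ratio, and its part was not tested for these genes.

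Gadd45a encodes a growth-arrest and DNA-damage protein that takes part in denervation atrophy. On day 0 it read 154 and 254 in emerin KO, 278, 605 and 579 in lamin A/C KO, and 285 and 200 in control. On day 3 it read 194, 240 and 385 in emerin KO, 179, 202 and 205 in lamin A/C KO, and 310 and 429 in control. On day 4 it read 208, 187 and 199 in emerin KO, 253, 247 and 156 in lamin A/C KO, and 316 and 215 in control. On day 0, 2 of the 3 lamin A/C KO arrays stood above all others and the third lay among the control arrays. Gadd45a fell in lamin A/C KO by day 3 (-1.12 ± 0.27, adjusted p = 0.0019) and day 4 (-1.0 ± 0.27, adjusted p = 0.0055), and it did not pass in emerin KO (0.36 ± 0.31 and -0.00 ± 0.31) or control (0.55 ± 0.34 and 0.11 ± 0.34). The day 3 interaction between lamin A/C KO and control, -1.67 ± 0.43, did not pass (95% interval -2.60 to -0.75, adjusted p = 0.22).

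On day 0, Gadd45a was lower in emerin KO than in lamin A/C KO (-1.10 ± 0.31, adjusted p = 0.032), and the call ended without emerin KO day 0 replicate 1 (-0.79), without lamin A/C KO day 0 replicate 2 (-0.92) or 3 (-0.95), and when the compared groups alone were fitted. The difference between lamin A/C KO and control was 0.87 ± 0.31 (adjusted p = 0.26). The lamin A/C KO day 0 samples are the ones labelled as taken after injection. An effect of that handling and of the genotype therefore cannot be told apart here. The same holds for Mt2 and for every other gene in a comparison that uses these day 0 arrays. Of 10 growth-arrest genes tested (11 listed), 1 rose and 3 fell by day 3 in emerin KO, 4 rose and 2 fell in lamin A/C KO, and 2 rose and 1 fell in control. The cell cycle inhibitor Cdkn1a rose by 3.23 in emerin KO, 2.03 in lamin A/C KO and 3.26 in control. On day 0 Cdkn1a was higher in lamin A/C KO than in control (1.52, adjusted p = 0.0028), and Gadd45g and Ddit4, which restrains mTOR, were higher in emerin KO than in control (1.55 and 1.19, adjusted p = 3.3e-04 and 0.0047).

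Mt1 and Mt2 lie next to each other on the same strand of mouse chromosome 8, with Mt2 first. Their promoter windows from the RefSeq table (build GRCm38.p6, 250 bases before to 50 bases after an annotated transcript start) are shown because both genes moved together after injection and the metal response element is the known site of the zinc-sensing factor Mtf1. Capitals mark the metal response element core, TGCACNC or TGCGCNC on either strand. Mt2 lies at chr8:94172368-94172667 and Mt1 at chr8:94178839-94179138, both on the plus strand. The Mt1 window is set at a transcript start that lies inside the annotated gene, downstream of its first base.
Mt2: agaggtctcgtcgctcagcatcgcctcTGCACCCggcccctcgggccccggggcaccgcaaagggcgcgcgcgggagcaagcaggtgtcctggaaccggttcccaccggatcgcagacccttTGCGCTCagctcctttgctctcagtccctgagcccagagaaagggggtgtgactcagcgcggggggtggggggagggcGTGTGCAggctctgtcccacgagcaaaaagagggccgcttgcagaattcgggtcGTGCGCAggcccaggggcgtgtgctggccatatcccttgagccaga
Mt1: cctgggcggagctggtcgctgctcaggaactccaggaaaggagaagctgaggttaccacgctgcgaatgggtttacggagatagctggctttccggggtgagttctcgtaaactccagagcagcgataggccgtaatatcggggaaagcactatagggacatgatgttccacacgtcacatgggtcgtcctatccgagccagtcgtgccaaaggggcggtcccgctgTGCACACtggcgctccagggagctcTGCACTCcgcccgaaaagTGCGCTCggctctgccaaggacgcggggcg
The Mt2 window held 4 matches, the first bases of which lie at -223, -128, -50 and 4 from the transcript start counted as 0, and the Mt1 window held 3, at -23, 2 and 20. Of 32851 RefSeq promoter windows of this length, 25.7% held at least 1 match, 1.97% at least 3 and 0.517% at least 4. Windows were found for 8 of the 10 listed genes, Trim63 among them. Fbxo32 and Eif4ebp1 had no window and were not searched. Outside the metallothioneins only Foxo3 held a match (1). The FoxO core TGTTTAC was found once, in Trim63, and in 3.65% of all windows. The hypoxia response element core ACGTG was found in Bnip3, Ctsl and Mt1 and in 19.6% of all windows. In Bnip3 and Ctsl its matches on the 2 strands overlap each other. A match describes the letters only.

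Mt1 read 1092 and 1490 in emerin KO, 2337, 2477 and 2348 in lamin A/C KO, and 1563 and 1056 in control on day 0. By day 3 the signals were 6736, 7443 and 5412 in emerin KO, 4906, 5214 and 6124 in lamin A/C KO, and 2829 and 5749 in control. By day 4 the signals were 5629, 3924 and 7537 in emerin KO, 3895, 2663 and 3519 in lamin A/C KO, and 2983 and 3918 in control. All injected arrays lay above all day 0 arrays, and the 3 lamin A/C KO arrays were the highest of day 0. Mt1 rose 4.97-fold in emerin KO (2.31 ± 0.27, adjusted p = 2.5e-07), 2.24-fold in lamin A/C KO (1.16 ± 0.24, adjusted p = 4.0e-04) and 3.09-fold in control (1.63 ± 0.29, adjusted p = 1.4e-04) by day 3. By day 4 it was 4.23-fold over day 0 in emerin KO (adjusted p = 1.4e-06) and 2.62-fold in control (adjusted p = 7.7e-04), and in lamin A/C KO the difference was 0.47 ± 0.24 (adjusted p = 0.13). Over the alternatives the Mt1 difference in emerin KO ranged from 1.02 to 2.53 by day 3 and from 0.80 to 2.32 by day 4. It passed under each. This Mt1 probe set may share signal with relatives, by its suffix. The other Mt1 probe set reached 100 on 2 arrays only and passed in no comparison, and averaging both ended the control calls (0.48 by day 3 and 0.49 by day 4).

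Mt2 read 947 and 1045 in emerin KO, 3291, 2310 and 2723 in lamin A/C KO, and 1254 and 658 in control on day 0. On day 3 it read 6599, 6772 and 4653 in emerin KO, 5551, 6256 and 7141 in lamin A/C KO, and 3814 and 4833 in control. On day 4 it read 4627, 4452 and 5609 in emerin KO, 4558, 2958 and 3320 in lamin A/C KO, and 2719 and 3187 in control. On day 0 the lamin A/C KO arrays lay above all emerin KO and control arrays and overlapped the lamin A/C KO arrays of day 4. Mt2 rose 5.80-fold in emerin KO (2.54 ± 0.23, adjusted p = 7.7e-09), 2.27-fold in lamin A/C KO (1.18 ± 0.21, adjusted p = 6.8e-05) and 4.59-fold in control (2.20 ± 0.25, adjusted p = 5.5e-07) by day 3. By day 4 it was 4.77-fold over day 0 in emerin KO (adjusted p = 5.3e-08) and 3.16-fold in control (adjusted p = 2.3e-05), and in lamin A/C KO the difference was 0.37 ± 0.21 (adjusted p = 0.17).

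**Figure D5:**
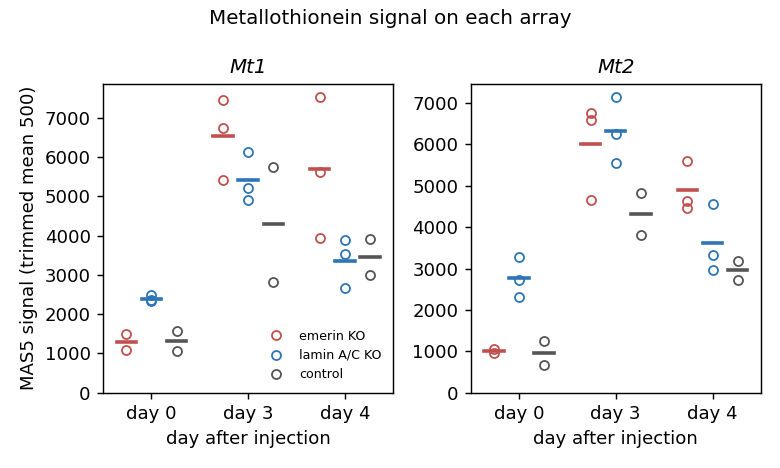
MAS5 signal (linear scale) of Mt1 and Mt2 on each array by day, with emerin KO, lamin A/C KO and control side by side. Circles are arrays and bars are group means. The lamin A/C KO arrays are the highest of day 0 for both genes, and those of day 4 lie under those of day 3.

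On day 0, Mt2 was 2.95-fold higher in lamin A/C KO than in control (1.56 ± 0.23, adjusted p = 6.5e-04) and lower in emerin KO than in lamin A/C KO (-1.44 ± 0.23, adjusted p = 3.8e-04), while emerin KO and control differed by 0.12 ± 0.25 (95% interval -0.42 to 0.67). Mt1 went the same way by smaller steps that did not pass, 0.88 ± 0.27 between lamin A/C KO and control (adjusted p = 0.16) and -0.89 ± 0.27 between emerin KO and lamin A/C KO (adjusted p = 0.053). Without control day 0 replicate 2, the array at 658, the Mt2 difference between lamin A/C KO and control was 1.11 ± 0.25 (adjusted p = 0.058). The macrophage sum on day 0 was 9136 to 11083 in lamin A/C KO, against 6469 to 8101 in control, the sum of 8 myoblast and regenerating fiber markers was 3506 to 4035 against 2562 to 2623, and the part of these cells was not tested.

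From day 3 to day 4, Mt2 fell 1.76-fold in lamin A/C KO (-0.82 ± 0.21, adjusted p = 0.045), a call that ended under 10 alternatives, leaving out each of the 6 arrays in turn other than lamin A/C KO day 4 replicate 1 among them (-0.91 to -0.69). Mt1 fell short there (-0.70 ± 0.24, adjusted p = 0.15). On day 4 Mt1 was 1.65-fold higher in emerin KO than in lamin A/C KO (0.72 ± 0.24, adjusted p = 0.044). That call ended under 11 alternatives, leaving out emerin KO day 4 replicate 1 (0.71) or 3 (0.50) or lamin A/C KO day 4 replicate 2 (0.57) or 3 (0.77) among them, and it changed sign when the Gapdh ratio was a covariate (-0.19 ± 0.31). Without the emerin KO arrays whose ratio was over 2.5 it was 0.24 ± 0.31, a value that rests on 1 emerin KO day 4 array (replicate 2), assumed to vary like the other groups. The difference between the day 4 changes of Mt2 in lamin A/C KO and control, -1.29 ± 0.33, did not pass (95% interval -2.0 to -0.59, adjusted p = 0.15).

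Among partners of the metallothioneins, 19 of 21 metal handling genes were tested. By day 3, 8 rose and 2 fell in emerin KO (median 0.10), 9 rose and 1 fell in lamin A/C KO (0.72), and 8 rose and 1 fell in control (0.50). Slc39a6, a zinc importer, rose by 2.08 in emerin KO, 1.28 in lamin A/C KO and 2.17 in control, and on day 0 it was higher in lamin A/C KO than in control (0.90, adjusted p = 0.0067). Mtf1 itself was higher in emerin KO than in control on day 4 (0.91, adjusted p = 0.030), where 5.76% of all genes passed. The Gapdh ratio on that day was 1.40 to 5.30 in emerin KO and 0.932 to 1.23 in control. The zinc exporters Slc30a5 and Slc30a7 and the copper importer Slc31a1 were lower in emerin KO than in control on day 3 (-0.79, -0.77 and -0.60), and 0 of the 19 were higher. Of all genes, 8.79% were lower and 7.30% higher there. Of 15 oxidative stress genes tested (16 listed), 3 rose and 5 fell in emerin KO, 4 rose and 5 fell in lamin A/C KO, and 5 rose and 4 fell in control by day 3, with heme oxygenase Hmox1 up by 5.15 in emerin KO, 3.06 in lamin A/C KO and 3.29 in control. On day 0, Gclc, an enzyme of glutathione synthesis, and thioredoxin Txn1 were higher in lamin A/C KO than in control (1.37 and 0.69, adjusted p = 0.020 and 0.015), and Gclc was higher in emerin KO too (1.29, adjusted p = 0.025). Of 10 IL-6 and Stat3 response genes, 5 rose in emerin KO, 5 in lamin A/C KO and 6 in control by day 3, and 0 fell. Socs3, the feedback inhibitor of that pathway, rose by 2.15 in lamin A/C KO and 1.80 in control by day 3. The change of Socs3 in emerin KO is not given here, which does not mean that it was absent. On day 3 Socs3 was lower in emerin KO than in control (-0.72, adjusted p = 0.032), as was the receptor gene Osmr (adjusted p = 5.4e-04). Stat3 was higher (0.73, adjusted p = 0.023). The day 3 differences between emerin KO and control in this paragraph again rest on arrays with a high Gapdh ratio.

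Across the 23 arrays the log2 signals of Mt1 and Mt2 had a Pearson correlation of 0.951, and their deviations from the group means one of 0.722. The arrays share the day effect, so these are descriptions. Bnip3 correlated with Fbxo32 at 0.825 and with Ctsl at -0.865, while Gadd45a stayed between -0.29 and 0.46 with every other member. The genes most like each member in profile, by Pearson correlation over the same arrays, were Nqo1 (0.924), Dusp26 and Aldh4a1 for Fbxo32, Dlat (0.892), Mob4 and Mrps36 for Foxo1, and Fyco1 (0.977), Nrap and Idh3g for Bnip3. For Ctsl they were Anxa1 (0.967), Ywhaz and Tram1, for Mt1 Rpsa (0.957), Selenos and Stat3, and for Mt2 Olfm1 (0.952), Txn1 and Cct8. Eif4ebp1 was closest to Ddx39a (0.853), Imp4 and Anapc15. Foxo3 and Gadd45a had no neighbour above 0.73, with Aatf (0.702), Mast3 and Stk4 for Foxo3 and Cetn2 (0.726), Ghrl and Col10a1 for Gadd45a.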

How the data were processed

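RNA of gastrocnemius muscle was read on 23 Affymetrix arrays. The intensities the authors deposited are linear MAS5 signals, per the submitters' processing notes, and no version is given in the sources used here. The deposited trimmed mean (2% cut at each end) was 150.04 to 150.06 on the 23 arrays, and signals were rescaled to 500 (factor 3.33). Log2(signal + 32) was taken. Left out were 64 Affymetrix controls, 691 probe sets with several symbols and 1555 with no listed gene. Each of 12393 genes took the values of its brightest probe set, and 11162 reached a signal of 100 on at least 2 arrays. Limma 3.58.1 (R 4.3.3) was fitted to 9 group means with 14 residual degrees of freedom, with p-values adjusted by Benjamini-Hochberg within each of 22 comparisons. Python 3.11.15, pandas 2.3.3 and matplotlib 3.10.9 made tables and figures. Simulated data with known changes tested the fit. The number of arrays limits the precision.

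The members and 17 gene lists (212 symbols, 191 tested) were chosen with earlier results of these data known. Named list genes are up to 3 with the largest log2 difference among those that passed. For likeness, they are the 3 genes with the highest correlation, gene models left out. Alternatives were quantile normalization, median scaling, pseudocounts of 1 and 100, leaving out the filter, averaging a gene's probe sets, every probe set as a feature, no intensity trend, the replicate block, only the compared groups, the Gapdh ratio as a covariate, leaving out emerin KO arrays with a ratio above 2.5, and leaving out each array.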

Additional observations from a re-analysis of the deposited data

Results flagged for a closer look

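One result was marked because the change after injection differed between genotypes by a test of that difference. Bnip3 fell further by day 3 in emerin KO than in control, by -1.04 on the log2 scale (SE 0.27, adjusted p = 0.044, limma interaction). The 3 emerin KO day 3 arrays lay below both control day 3 arrays, and the 2 emerin KO day 0 arrays lay above both control day 0 arrays. The emerin KO day 3 arrays had Gapdh ratios of 3.62 to 6.09, against 0.957 and 0.976 on the control day 3 arrays, and with the ratio as a covariate the difference was -0.78 (SE 0.36, adjusted p = 0.48). The call ended under 11 of 20 alternatives and hung on single arrays. It was lost without control day 0 replicate 2, control day 3 replicate 2, either emerin KO day 0 array, or emerin KO day 3 replicate 1 or 2.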

How the results depend on the processing

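Of 48 member results that passed, 29 passed in the same direction under every alternative run, 19 lost the call under 1 or more, and 18 that had not passed did so under 1 or more. With the Gapdh ratio as a covariate, Mt1 turned to -0.19 between emerin KO and lamin A/C KO on day 4, and to -0.56 and -0.059 between emerin KO and control on days 3 and 4, and Foxo3 turned to -0.31 from day 0 to day 3 in emerin KO. Member counts moved by over 1.5 times as follows, and the cause was not tested. The fall in lamin A/C KO from day 3 to day 4 (1 call) gave 0 under median scaling, pseudocount 1, no filter, no intensity trend and the covariate, and 2 when the compared groups alone were fitted. Emerin KO against control on day 3 (1 call) gave 0 under median scaling, no intensity trend, the replicate block, the compared groups alone and the covariate, and on day 0 (1 call) it gave 2 under quantile normalization and 0 with the compared groups alone. On day 4 (0 calls) quantile normalization gave 1. Emerin KO against lamin A/C KO on day 4 (1 call) gave 0 under 7 settings: median scaling, no intensity trend, no filter, averaged probe sets, the compared groups alone, the covariate and without the high-ratio emerin KO arrays. The same pair gave 0 on day 3 (1 call) with the covariate and 5 on day 0 (3 calls) without the high-ratio arrays. Lamin A/C KO against control on day 0 (1 call) gave 2 with the covariate. The emerin KO interaction on day 3 (1 call) gave 0 under median scaling, no intensity trend, the compared groups alone and the covariate, and on day 4 (0 calls) it gave 1 under pseudocount 100 and the replicate block. Control from day 0 to day 4 (5 calls) gave 3 with the mean of all probe sets.

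Leaving out 1 array at a time gave 0 to 1 calls in emerin KO against control on days 0, 3 and 4, in lamin A/C KO against control on day 0, in emerin KO against lamin A/C KO on day 4, in lamin A/C KO from day 3 to day 4 and in its day 4 interaction, 0 to 2 in the emerin KO interaction on day 3, and 1 to 3 in emerin KO against lamin A/C KO on day 0. For the changes by day 3 it gave 6 to 8 calls in emerin KO (7 in the main fit), 7 in lamin A/C KO (8) and 4 to 5 in control (6). By day 4 it gave 5 to 7 in emerin KO (6), 5 to 6 in lamin A/C KO (6) and 4 to 5 in control (5). Replicate numbers did not pair the samples (correlations of deviations -0.30 to 0.39). Under the replicate block the Fbxo32 interaction of emerin KO passed on day 3 (-2.23) and day 4 (-2.73), and the day 3 calls of Ctsl against control and of the Bnip3 interaction were lost. Median scaling moved the median log2 difference of all genes by over 0.1 in 6 comparisons, for example to -0.02 in control from day 0 to day 3, against 0.09. The emerin KO day 3 arrays all had a high Gapdh ratio, so comparisons that need them could not be fitted without high-ratio arrays, and on day 4 this setting left 1 emerin KO array.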

Other observations

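Gadd45g and the hypoxia-linked Pfkfb3, which drives glycolysis, were both higher in emerin KO than in control on day 0, by 1.55 and 1.82 on the log2 scale (adjusted p = 3.3e-04 and 0.0045, limma), on the arrays where Fbxo32 was 2.01 higher. Pfkfb3 was the only hypoxia target of the list that passed in that comparison, and it fell in emerin KO by day 3 (-3.27, adjusted p = 2.8e-08). The neutrophil marker Csf3r was 1.83 higher in emerin KO than in control on day 0 (adjusted p = 0.0020), the 1 call among 4 neutrophil markers tested, while the sum of 5 such markers overlapped, at 417 and 908 in emerin KO against 319 and 451 in control. Of 6 fibroblast markers 3 were lower in emerin KO than in control on day 0 and 0 higher, against 2.02% and 1.20% of all genes. Among the 3 was the collagen gene Col1a1 (-1.33, adjusted p = 7.2e-04). In lamin A/C KO on day 0, the perinatal myosin gene Myh8 was 1.52 higher than in control (adjusted p = 1.7e-04), on the arrays where Mt2 was 1.56 higher. Myh8 alone passed among 8 myoblast and regenerating fiber markers tested. Of 12 macrophage markers tested, C1qa and Lyz2 alone passed, 0.80 and 0.79 higher. These day 0 arrays are the ones labelled as taken 0 days after injection.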
